A study of Homo sapiens with 24 samples.

Results

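The genes described are 38 listed genes that mark the epithelial or the mesenchymal state of a cell: cadherins, claudins and other parts of cell junctions, regulators that keep cells epithelial, laminin-332 chains, mesenchymal structural genes and the transcription factors of the epithelial to mesenchymal transition (EMT). They were chosen by name, and 34 of the 38 could be described through a probe set with exactly 1 gene symbol, out of 19775 genes so named on the array. Of the 34 genes, 25 were epithelial (4 adherens junction and adhesion genes, 10 tight junction genes, 7 desmosome genes, 3 regulators and 1 laminin chain) and 9 were mesenchymal genes or EMT factors. CTNND1 and ESRP2 had only probe sets shared with other symbols, and F11R and LAMA3 had no probe set listed under their symbols, so these 4 genes were not analysed here.

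RNA came from HCT15 and HT115, established human colorectal cancer lines whose own MLK4 genes carry loss-of-function mutations, according to the labels. MLK4 (current gene symbol MAP3K21) belongs to the mixed-lineage kinases, which signal to JNK. Each line had 2 engineered derivatives with tetracycline-inducible MLK4: one induced the wild-type form (WT), and the control induced a mutant, which was Y330H for HCT15 and E314K for HT115. Each derivative gave 3 arrays labelled Tet (24 h of tetracycline) and 3 arrays without that label, called untagged, for 8 groups of 3 arrays in all. It is not stated in the labels what the untagged cells received or whether a derivative is 1 clone. They also do not call the replicates separate cultures, and the p-values therefore rest on the spread among these arrays alone, which may be technical.

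In a polarized epithelium, E-cadherin joins neighbouring cells at adherens junctions through catenins, claudins and occludin seal the space between cells at tight junctions, and desmosomes tie the keratin networks of neighbours together. Transcription factors of the SNAI, ZEB and TWIST families repress E-cadherin and other epithelial genes during EMT, while GRHL2, OVOL1 and the splicing factor ESRP1 hold cells in the epithelial state. Loss of junction genes and gain of vimentin, N-cadherin and fibronectin are the usual RNA signs of EMT in carcinoma cells.

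Values are log2 signals, and every group value is a mean over n = 3 arrays. Array medians were 6.38 to 6.48 in 18 arrays but 5.55 to 5.61 in the 6 of HT115 WT, so levels were compared only among the 18, while changes were taken within a derivative. Arrays of a group correlated at 0.986 or higher. The difference between the 3' and 5' ACTB control probe sets, a sign of RNA integrity, was 1.17 in the untagged and 0.931 in the Tet HCT15 WT array numbered 1, against 0.298 to 0.646 in the other 22 arrays. The single MAP3K21 probe set did not check the induction: its means were 10.78 untagged and 10.62 with Tet in HCT15 WT, and 10.24 and 10.05 in HT115 WT. The epithelial keratin probe sets KRT8, KRT18 and KRT19 lay between 11.7 and 13.8 in the 18 arrays. They belong to a colon epithelium list of 9 genes that averaged 7.96 to 11.5 per array there. In untagged HCT15 WT its members KRT20 (mean 4.29) and GPA33 (4.85) were low. Per array, the fibroblast list (9 genes) averaged 5.18 to 5.55, endothelium (7) 5.57 to 6.12, leukocyte (5) 4.67 to 6.44 and smooth muscle (4) 7.09 to 7.85. Single genes of these lists were brighter, such as LYZ (13.70 in untagged HT115 E314K) and ESAM (9.22 in untagged HCT15 WT).

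After induction of wild-type MLK4 in HCT15, the 34 genes did not move together towards either state. The tight junction genes did not share a direction: the means of TJP3 and CLDN2 were lower in the Tet arrays and that of CLDN7 was higher. The means of LAMB3 and SNAI1 were also higher, while the adherens junction genes differed by 0.08 or less. None of the 34 genes had a limma adjusted p under 0.05, against 0.698% of all genes called. At an unadjusted p under 0.05 there were 8 of the 34 genes, against 1851 of all 19775 genes. The Tet and untagged HCT15 arrays of the same number deviated together and were taken as pairs, and with this replicate block 5 of the 34 genes were called, TJP3 and CLDN2 lower and CLDN7, LAMB3 and SNAI1 higher, against 4.86% of all genes. That block also paired the HT115 arrays. With pairs in HCT15 only, the same 5 genes and DSC2 were called (3.62% of all genes), and on the 12 HCT15 arrays alone TJP3, CLDN2 and LAMB3 were called (2.49%), but not CLDN7 (adjusted p 0.0966) or SNAI1 (0.0940).

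**Figure D1:**
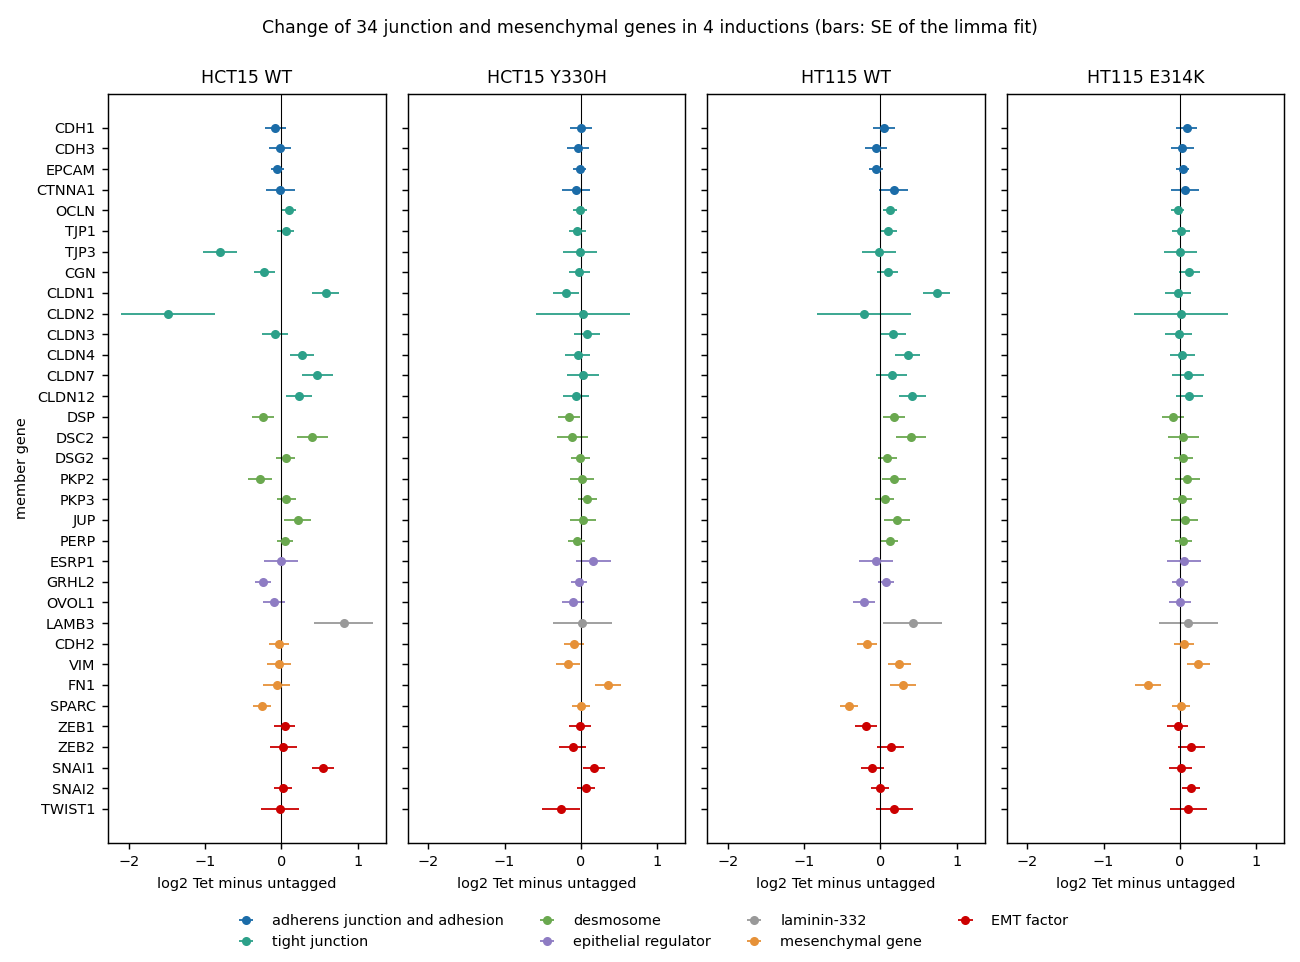
The 4 panels plot the log2 change (Tet minus untagged, x axis) of each of the 34 genes (y axis, grouped and coloured by role), with points for the fitted difference of 3 against 3 arrays and bars for its standard error. Points lie from -1.49 (CLDN2) to 0.82 (LAMB3) in HCT15 WT, from -0.26 to 0.36 in HCT15 Y330H, from -0.42 to 0.74 in HT115 WT and from -0.42 to 0.24 in HT115 E314K.

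TJP3 encodes ZO-3, a scaffold protein at the cytoplasmic face of tight junctions. Its log2 signal was 9.88, 10.42 and 10.48 in the untagged HCT15 WT arrays numbered 1, 2 and 3, and 9.11, 9.51 and 9.75 in the Tet arrays of the same numbers. All 3 Tet arrays lay below all 3 untagged arrays, and the groups did not overlap. The change was -0.81 ± 0.22 (SE), or 1.75-fold lower, with an adjusted p of 0.112 in limma, and of 9.94e-04 with the replicate block. Without the untagged array numbered 1 the adjusted p was 0.0497 in limma. A second TJP3 probe set differed by -0.97.

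CLDN2 encodes claudin-2, which forms channels for cations and water in leaky epithelia. Its signal was 7.69, 9.66 and 10.70 in the untagged arrays numbered 1, 2 and 3 and 6.41, 7.36 and 9.81 in the Tet arrays. The spread among arrays of a group was wide and the groups overlapped, but the Tet array was lower than the untagged array of its number in all 3 pairs. The change was -1.49 ± 0.62 (SE) with an adjusted p of 0.419 in limma, and of 7.49e-04 with the replicate block, in which its SE was 0.18. Leaving out single arrays moved the limma value from -0.76 (without Tet array 1) to -2.46 (without Tet array 3, adjusted p 0.0158, called).

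LAMB3 encodes the beta-3 chain of laminin-332, the basement membrane protein on which epithelial cells are anchored. Its signal was 6.86, 7.20 and 8.93 in the untagged HCT15 WT arrays and 8.13, 7.82 and 9.48 in the Tet arrays. The arrays numbered 3 stood above the others in both groups, the groups overlapped, and each Tet array was higher than its partner, by 1.27, 0.62 and 0.56. The change was 0.82 ± 0.39 (SE) with an adjusted p of 0.527 in limma, and of 0.00506 with the replicate block. Leaving out single arrays moved the limma value from 0.31 (without Tet array 3) to 1.45 (without untagged array 3, adjusted p 0.0444, called).

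SNAI1, the EMT factor that represses E-cadherin, had signals of 6.10, 6.11 and 6.00 in the untagged HCT15 WT arrays and of 6.67, 6.91 and 6.26 in the Tet arrays. The groups did not overlap. The change was 0.55 ± 0.15 (SE), with an adjusted p of 0.112 in limma, and of 0.0228 with the replicate block. The SNAI1 signals were low, so no fold is given, and whether they stand above background was not tested. Without Tet array 3 the SNAI1 change was called in limma (0.72, adjusted p 0.0145). CDH1, which encodes E-cadherin, had signals of 12.61, 12.67 and 12.72 untagged and 12.51, 12.56 and 12.69 with Tet. The groups overlapped, and the difference of -0.08 had a 95% confidence interval from -0.37 to 0.21. 

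Among the other claudins, CLDN7, which carries a claudin of the lateral membrane, had signals of 9.95, 10.16 and 10.15 untagged and 10.36, 10.74 and 10.57 with Tet in HCT15 WT. The groups did not overlap, and the change was 0.47 ± 0.20 (SE), with an adjusted p of 0.463 in limma and of 0.0344 with the replicate block. CLDN1, a sealing claudin, had signals of 3.80, 4.13 and 4.79 untagged and 5.02, 4.79 and 4.66 with Tet. These signals were low, and no detection call was given, so whether they stand above background was not tested. The groups overlapped, 2 of 3 pairs were higher with Tet, and the change of 0.58 ± 0.18 (SE) had an adjusted p of 0.178 in limma and of 0.0935 with the replicate block. It was called without the untagged array numbered 3 (0.86, adjusted p 0.00628 in limma) and with the block without both arrays numbered 3 (0.94, 0.00260), and was 0.26 (0.455) with the block without both numbered 1. CLDN4 was higher by 0.27 without overlap and CLDN12 by 0.23 with overlap, and neither passed the test in either fit.

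**Figure D2:**
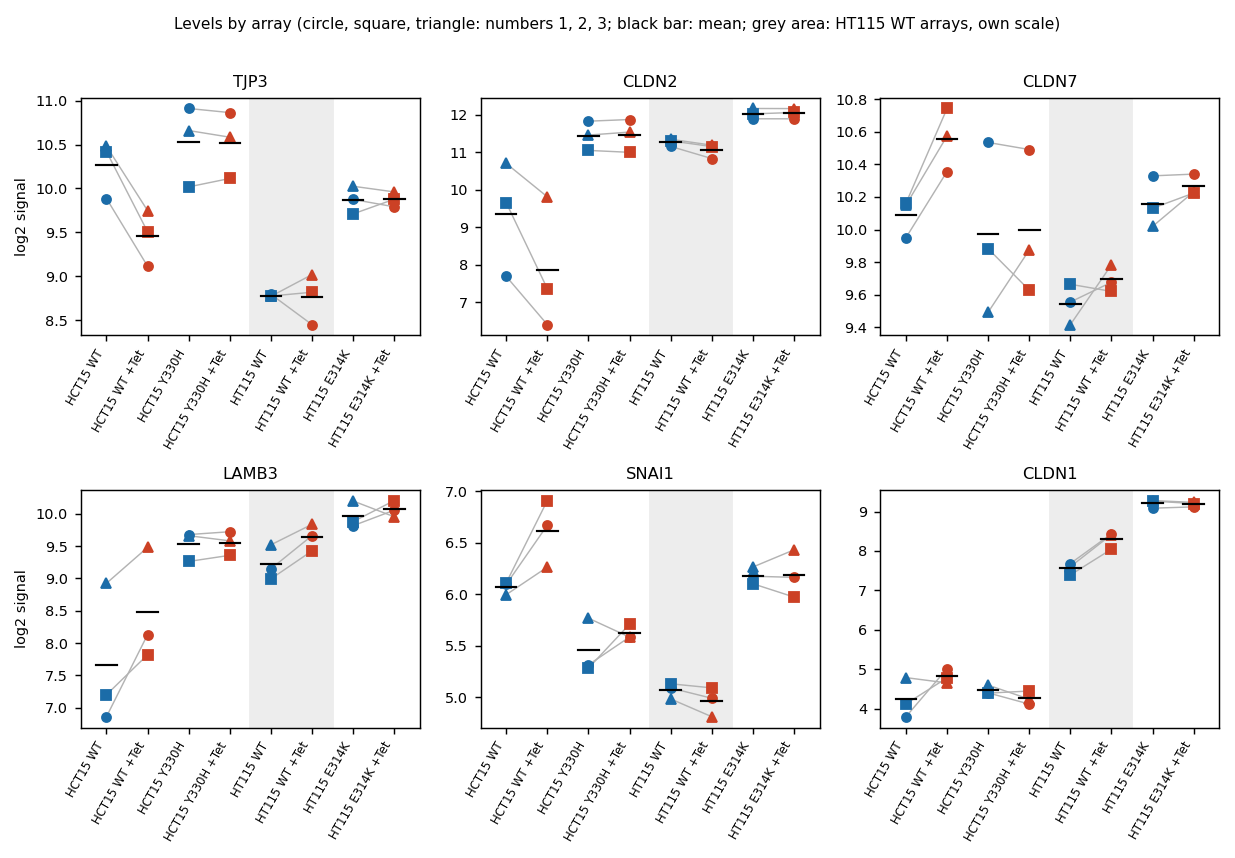
Each panel plots the log2 signal (y axis) of 1 gene in the 24 arrays by group (x axis), untagged in blue and Tet in red, with grey lines joining arrays of the same number, black bars for means and a grey area for the HT115 WT arrays, whose scale is their own. In HCT15 WT the TJP3 and CLDN2 lines all run down and the CLDN7, LAMB3 and SNAI1 lines all run up, and in HT115 WT the 3 CLDN1 lines run up.

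Promoter windows are shown for 3 of the 5 genes called with the replicate block, because their windows held a match to a motif of a factor family near this biology. RefSeq windows of 300 bases (GRCh38.p14, 250 before to 50 after a transcript start) were given for 24 of the 38 genes, 45 windows in all. The E-box CAGGTG, the form bound by SNAI, ZEB and other families, was searched on both strands, the other of which reads CACCTG. So were the AP-1 site TGACTCA, which reads TGAGTCA on the other strand, and the GRHL motif AACNNGTT, which reads the same on both strands. In these sequences, matches are in capitals.
LAMB3, chr1:209651325-209651624, minus strand, with an AP-1 match: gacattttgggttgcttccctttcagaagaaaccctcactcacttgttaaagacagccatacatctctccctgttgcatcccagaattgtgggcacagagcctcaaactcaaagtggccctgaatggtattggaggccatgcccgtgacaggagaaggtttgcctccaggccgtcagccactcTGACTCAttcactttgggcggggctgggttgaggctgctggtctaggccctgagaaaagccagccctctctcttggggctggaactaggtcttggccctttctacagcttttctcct
CLDN7, chr17:7262429-7262728, minus strand, with 5 E-box matches: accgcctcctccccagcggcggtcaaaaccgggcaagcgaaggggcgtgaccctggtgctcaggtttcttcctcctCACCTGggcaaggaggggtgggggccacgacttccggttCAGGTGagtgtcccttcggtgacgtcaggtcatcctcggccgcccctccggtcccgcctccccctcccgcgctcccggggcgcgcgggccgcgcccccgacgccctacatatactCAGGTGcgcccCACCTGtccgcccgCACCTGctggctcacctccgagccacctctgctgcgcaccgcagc
TJP3, chr19:3721487-3721786, plus strand, with an E-box match: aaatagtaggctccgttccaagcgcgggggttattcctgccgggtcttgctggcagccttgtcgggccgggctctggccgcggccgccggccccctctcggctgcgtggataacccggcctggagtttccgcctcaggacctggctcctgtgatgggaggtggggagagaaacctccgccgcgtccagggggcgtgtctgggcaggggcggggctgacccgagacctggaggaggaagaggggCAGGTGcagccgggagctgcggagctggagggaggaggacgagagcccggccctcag
The AP-1 match of LAMB3 starts at position -67 from the transcript start, and the E-box of TJP3 starts at -7. The E-boxes of CLDN7 start at -174, -135, -20, -9 and 6. An E-box was found in 14 of the 45 windows and in 20.59% of all 35116 windows, AP-1 in 4 and in 4.949%, and the GRHL motif in 4 and in 3.52%. Windows of a gene can overlap, and overlapping CTNNA1 windows held the same GRHL match, so these counts are of windows and not of separate sites. A further LAMB3 window held an E-box at -218. The remaining LAMB3 window, the other windows of TJP3 and CLDN7 and both CLDN2 windows held none of the 3 motifs, and SNAI1 was not among the 24 genes. A match describes letters only.

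The desmosome genes did not share a direction in HCT15 WT. DSC2, a desmosomal cadherin, was higher by 0.41 ± 0.20 (SE), with an adjusted p of 0.551 in limma and of 0.060 with the replicate block. JUP (plakoglobin) was higher by 0.21, while PKP2 (plakophilin-2) differed by -0.28 and DSP (desmoplakin) by -0.24. The DSP arrays did not overlap between the groups: the untagged signals were 10.70, 10.44 and 10.47 and the Tet signals 10.22, 10.39 and 10.28. DSG2, PKP3 and PERP differed by 0.05 to 0.06.

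Of the epithelial regulators in HCT15 WT, GRHL2 differed by -0.24 ± 0.10 (SE), with adjusted p of 0.484 in limma and 0.0855 with the replicate block, OVOL1 by -0.10 and ESRP1 by 0.00. The mesenchymal genes CDH2, VIM and FN1 differed by -0.03, -0.03 and -0.06. SPARC, a matrix glycoprotein, had signals of 5.29, 5.29 and 5.42 untagged and 5.04, 5.09 and 5.12 with Tet. These low signals did not overlap, and the change of -0.25 had an adjusted p of 0.527. Whether such signals stand above background was not tested. The EMT factors ZEB1, ZEB2, SNAI2 and TWIST1 differed by 0.04, 0.03, 0.02 and -0.02.

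Over the 34 genes, 17 were above and 17 below 0 in HCT15 WT, with a median of -0.01 against -0.03 over all genes. The 25 epithelial genes had a median of 0.00 and the 9 mesenchymal genes and EMT factors a median of -0.02. Tet and untagged arrays did not overlap in 6 of the 34 genes (CLDN4, CLDN7 and SNAI1 higher, TJP3, DSP and SPARC lower), or 17.6%, against 13.9% of all genes. That share was near the background.

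Beside these changes, other epithelial genes of the same HCT15 WT arrays moved, and their part in the junction results was not tested. Of the 9 colon epithelium markers, KRT19 rose by 0.70 (adjusted p 0.00281) and KRT20 by 1.497 (adjusted p 0.00574) in limma, and CDX2 (-0.47) and VIL1 (-0.72) fell with the replicate block only (adjusted p 0.00586 and 0.00118). The colon marker list averaged 7.96 to 8.88 per untagged array and 8.33 to 8.72 per Tet array. Leaving out both HCT15 WT arrays numbered 1, the pair with the high ACTB difference, TJP3 (-0.82, adjusted p 0.0112), CLDN2 (-1.59, 0.00576) and LAMB3 (0.59, 0.0409) were still called with the replicate block, whereas CLDN7 (0.50, 0.117) and SNAI1 (0.53, 0.119) were not. CLDN7 and SNAI1 were also lost without the arrays numbered 2 (adjusted p 0.249 and 0.232), and CLDN7 without those numbered 3 (0.0877).

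The mutant form Y330H gave no such pattern in HCT15. None of the 34 genes was called after its induction, by limma with or without the replicate block, as were 0% of all genes. None of the 34 had an unadjusted p under 0.05, against 614 of all 19775 genes. Changes ran from -0.26 (TWIST1) to 0.36 (FN1), and besides these CLDN1 (-0.20) and VIM (-0.17) were lowest and SNAI1 (0.17) and ESRP1 (0.17) highest. TJP3 signals were 10.91, 10.02 and 10.66 untagged and 10.86, 10.11 and 10.58 with Tet, a difference of -0.01. CLDN2 differed by 0.02 and LAMB3 by 0.02. The Tet and untagged arrays overlapped for all 34 genes, while they did not for 7.27% of all genes.

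The difference between the 2 HCT15 inductions (WT minus Y330H) was tested directly. No member was called in limma, against 0.0607% of all genes. In that fit 2 members had an unadjusted p under 0.05, against 748 of all 19775 genes. With the replicate block TJP3 (-0.80 ± 0.15 SE, adjusted p 0.0264) and CLDN2 (-1.51 ± 0.26 SE, adjusted p 0.0201) were called, against 0.956% of all genes. LAMB3 (0.80, adjusted p 0.0940 with the block), CLDN1 (0.78, 0.242), DSC2 (0.52) and SNAI1 (0.38, 0.479) were not, and FN1 differed by -0.42 (0.409). TJP3 was no longer called when the HCT15 WT arrays numbered 1 (adjusted p 0.0901) or 2 (0.140) were left out, and CLDN2 was still called without each of the 3 pairs. With pairs in HCT15 only both were called (adjusted p 0.0343 and 0.00813, against 0.733% of all genes), but on the 12 HCT15 arrays alone neither was (0.0793 and 0.174, against 0.0455%).

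In HT115, induction of wild-type MLK4 came with small positive differences in most tight junction and desmosome genes, none of which passed the test. Of the tight junction genes 8 of 10 lay above 0, and of the adherens junction genes 2 of 4. The clearest single gene was CLDN1, and all 7 desmosome genes lay above 0. No member was called by limma, against 0.147% of all genes. An unadjusted p under 0.05 was found for 4 of the 34 genes, against 1537 of all 19775 genes. Tet and untagged arrays did not overlap in 11 of the 34 genes, or 32.4%, against 14.4% of all genes. Of these 11 genes, 10 were higher with Tet, all of them epithelial (CTNNA1, OCLN, CLDN1, CLDN4, CLDN12, DSC2, PKP2, JUP, PERP and GRHL2), and SPARC was lower. Of all 19775 genes, 1317 were higher and 1534 lower without overlap.

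CLDN1 signals were 7.68, 7.39 and 7.60 in the untagged HT115 WT arrays and 8.44, 8.05 and 8.42 in the Tet arrays. All 3 Tet arrays lay above all 3 untagged arrays. The change was 0.74 ± 0.18 (SE), 1.67-fold, with an adjusted p of 0.139 in limma, which ranged from 0.0438 with array weights to 0.564 over the alternatives. CLDN12 had signals of 8.83, 8.78 and 8.69 untagged and 9.21, 9.15 and 9.21 with Tet, a change of 0.42 (adjusted p 0.549), and CLDN4 changed by 0.36 (0.606).

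The 7 desmosome genes differed by 0.05 (PKP3) to 0.40 (DSC2) in HT115 WT, with a median of 0.18. DSC2 signals were 9.54, 9.42 and 9.496 untagged and 10.02, 9.80 and 9.83 with Tet, without overlap, and its adjusted p was 0.670. LAMB3 differed by 0.42 (adjusted p 0.958). The adherens junction genes ran from -0.06 (EPCAM) to 0.18 (CTNNA1), with CDH1 at 0.05, and TJP3 differed by -0.02. Over the 25 epithelial genes, 19 were above 0 and the median was 0.12, against -0.02 over all genes.

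Mesenchymal genes did not share a direction in HT115 WT. SPARC signals were 2.39, 2.36 and 2.81 untagged and 2.22, 2.22 and 1.87 with Tet, a change of -0.42 ± 0.12 (SE) with an adjusted p of 0.288. These signals were low, and no detection call was given, so whether they stand above background was not tested. VIM and FN1 differed by 0.25 and 0.30, and SNAI1 by -0.10. The 9 mesenchymal genes and EMT factors had a median of -0.01. Among the epithelial regulators OVOL1 differed by -0.22, and CLDN2 differed by -0.21.

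After induction of E314K in HT115, none of the 34 genes was called, as were 0% of all genes. Of the 34, FN1 alone had an unadjusted p under 0.05, against 313 of all 19775 genes. FN1 signals were 5.77, 5.79 and 5.28 untagged and 5.26, 5.42 and 4.90 with Tet, a difference of -0.42 (limma adjusted p 1.00) with overlapping arrays. The highest differences were those of VIM (0.24), ZEB2 (0.15) and SNAI2 (0.14), and after FN1 the lowest were DSP (-0.09) and ZEB1 (-0.03). CLDN1 differed by -0.02. The Tet and untagged arrays overlapped for all 34 genes, while they did not for 6.16% of all genes.

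No member differed between the WT and E314K inductions in HT115 by limma, against 0.0152% of all genes. An unadjusted p under 0.05 was found for 3 members, against 564 of all 19775 genes. These were CLDN1 (0.77), FN1 (0.72) and SPARC (-0.43), and the signals of FN1 and SPARC were low in HT115 WT. The FN1 value joins a difference of 0.30 in the WT induction and of -0.42 in the E314K induction. DSC2 differed by 0.35, CDH2 by -0.24 and CLDN2 by -0.22. Between the WT inductions of the 2 lines (HCT15 minus HT115) no member was called in limma either, against 0.0253% of all genes. An unadjusted p under 0.05 was found for 3 members, against 680 of all 19775 genes. With the replicate block TJP3 was called (-0.79 ± 0.15 SE, adjusted p 0.0437, against 0.46% of all genes), but not with pairs in HCT15 only (0.0745). SNAI1 differed by 0.65 (adjusted p 0.922), LAMB3 by 0.39, CLDN7 by 0.32, CLDN2 by -1.28 and PKP2 by -0.46. The WT inductions enter 2 of these differences each and so share their arrays.

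Levels of these genes differed between the lines. In untagged arrays (mean of the HCT15 derivatives minus HT115 E314K), 21 of the 34 genes passed the limma test, or 61.8%, against 35.3% of all genes. Of these, 7 were higher and 14 lower in HCT15. The mean level of CDH1 was higher in HCT15, and those of CTNNA1, CLDN1, CLDN3 and ESRP1 were higher in HT115 E314K. With 1 HT115 derivative on this scale, line and derivative cannot be told apart, and in bulk RNA neither can fewer cells expressing a gene and less RNA per cell.

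CDH1 signals were 12.61, 12.67 and 12.72 in HCT15 WT, 12.75, 12.75 and 12.80 in HCT15 Y330H and 10.48, 10.38 and 9.82 in HT115 E314K. Every HCT15 array lay above every HT115 E314K array, and the difference was 2.49 ± 0.13 (SE), 5.63-fold, with a limma adjusted p of 5.60e-11. CTNNA1, the alpha-catenin that links cadherins to actin, had signals of 9.70, 9.36 and 10.18 in HCT15 WT, 9.74, 9.36 and 9.37 in HCT15 Y330H, and 11.43, 11.43 and 11.78 in HT115 E314K. Here all HT115 E314K arrays were higher, with a difference of -1.93 ± 0.18 (SE, adjusted p 2.11e-07), the opposite direction to CDH1. Of the 5 CTNNA1 probe sets, the dimmest did not share the direction (0.06). CDH3 (P-cadherin) was higher in HCT15 by 0.84, and EPCAM differed by 0.02.

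CLDN1, a tight junction gene, had low signals in HCT15. Its signals were 3.80, 4.13 and 4.79 in HCT15 WT, 4.41, 4.40 and 4.60 in HCT15 Y330H and 9.08, 9.26 and 9.28 in HT115 E314K. The groups did not overlap, and the signal difference was -4.85 ± 0.16 (SE, limma adjusted p 1.34e-13), with -5.45 in its second probe set. No detection call was given, so whether the HCT15 signals stand above background was not tested, and no fold is given for CLDN1. CLDN3 was lower in HCT15, with a difference of -2.44 ± 0.16 (SE), with signals of 9.37 to 10.59 in the 6 HCT15 arrays and 12.34, 12.47 and 12.36 in HT115 E314K. OCLN (occludin, 0.52) and TJP1 (ZO-1, 0.53) were higher in HCT15. CGN (cingulin, -0.35), CLDN4 (-0.49) and CLDN2 (-1.63, adjusted p 0.0421) were lower. For OCLN the 2 dimmer of 4 probe sets were at -0.01 and -0.18, and the second probe set of CLDN4 was at 0.57. TJP3 (0.53, adjusted p 0.0517), CLDN7 (-0.13) and CLDN12 (-0.20) did not pass.

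**Figure D3:**
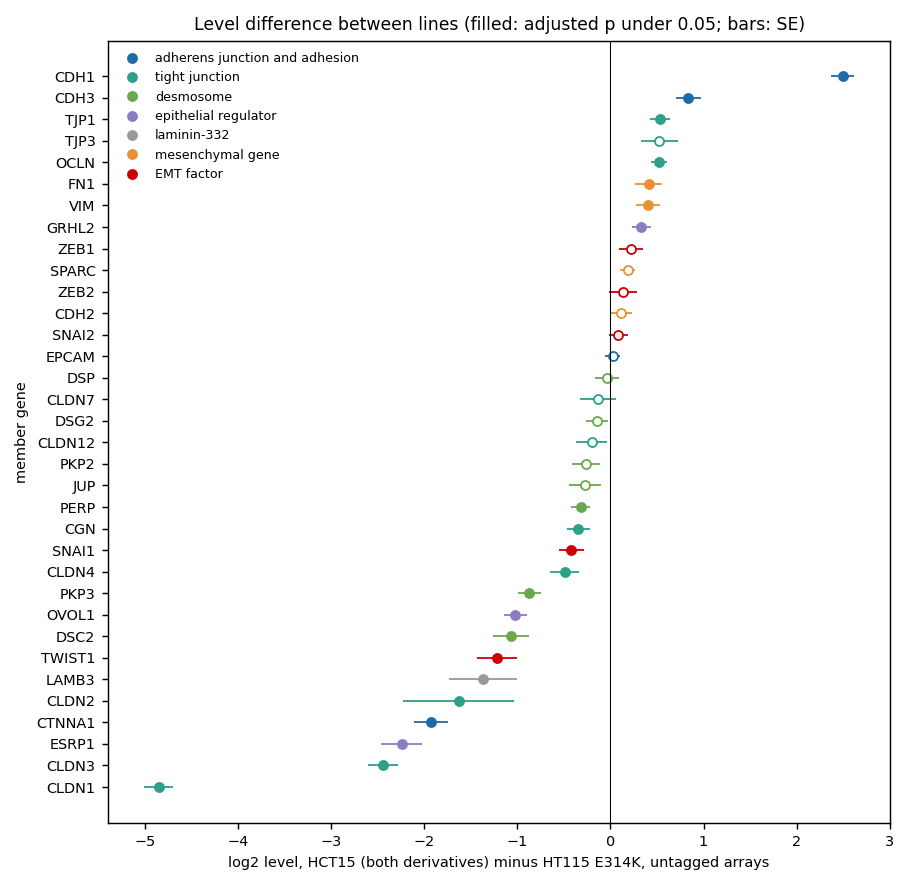
Points give the log2 level difference (x axis) of each of the 34 genes (y axis, sorted), HCT15 minus HT115 E314K in untagged arrays (6 against 3), with bars for the standard error, colours for the role and filled points for an adjusted p under 0.05. The differences run from -4.85 (CLDN1) to 2.49 (CDH1), and the 9 mesenchymal genes and EMT factors lie between -1.21 (TWIST1) and 0.41 (FN1).

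All 7 desmosome genes were below 0, that is lower in HCT15. Of them, 3 were called (42.9%), a share near the 35.3% of all genes. These were DSC2 (-1.07 ± 0.19 SE), PKP3 (-0.87 ± 0.12 SE) and PERP (-0.32 ± 0.10 SE). JUP (-0.28), PKP2 (-0.26), DSG2 (-0.15) and DSP (-0.03) did not pass. Of the regulators, ESRP1 was lower in HCT15, with signals of 8.74 to 9.74 in the 6 HCT15 arrays and 11.18, 11.41 and 11.33 in HT115 E314K, and a difference of -2.24 ± 0.22 (SE, adjusted p 2.66e-07). OVOL1 was lower (-1.02) and GRHL2 was higher by 0.33. LAMB3 was lower in HCT15 (-1.37, adjusted p 0.00704).

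The 9 probe sets of mesenchymal genes and EMT factors differed by -1.21 to 0.41 between the lines. Of these, 4 were called (44.4%, against 35.3% of all genes). All 9 had mean signals below that of the median gene. VIM (0.40) and FN1 (0.41) were higher in HCT15, and SNAI1 (-0.42) was lower. TWIST1 had signals of 3.98, 3.96 and 4.32 in HCT15 WT, 4.23, 4.62 and 4.53 in HCT15 Y330H and 5.76, 5.49 and 5.21 in HT115 E314K, a difference of -1.21 ± 0.22 (SE, adjusted p 2.38e-04) without overlap. ZEB1 (0.22), SPARC (0.18), ZEB2 (0.14), CDH2 (0.11) and SNAI2 (0.09) did not pass. Of the 7 FN1 probe sets 6 were at or between -0.04 and 0.32, and no detection call was given, so whether these low signals stand for transcript was not tested. Over the 18 arrays the mean signals of the 9 probe sets lay between 3.23 (SNAI2) and 6.02.

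**Figure D4:**
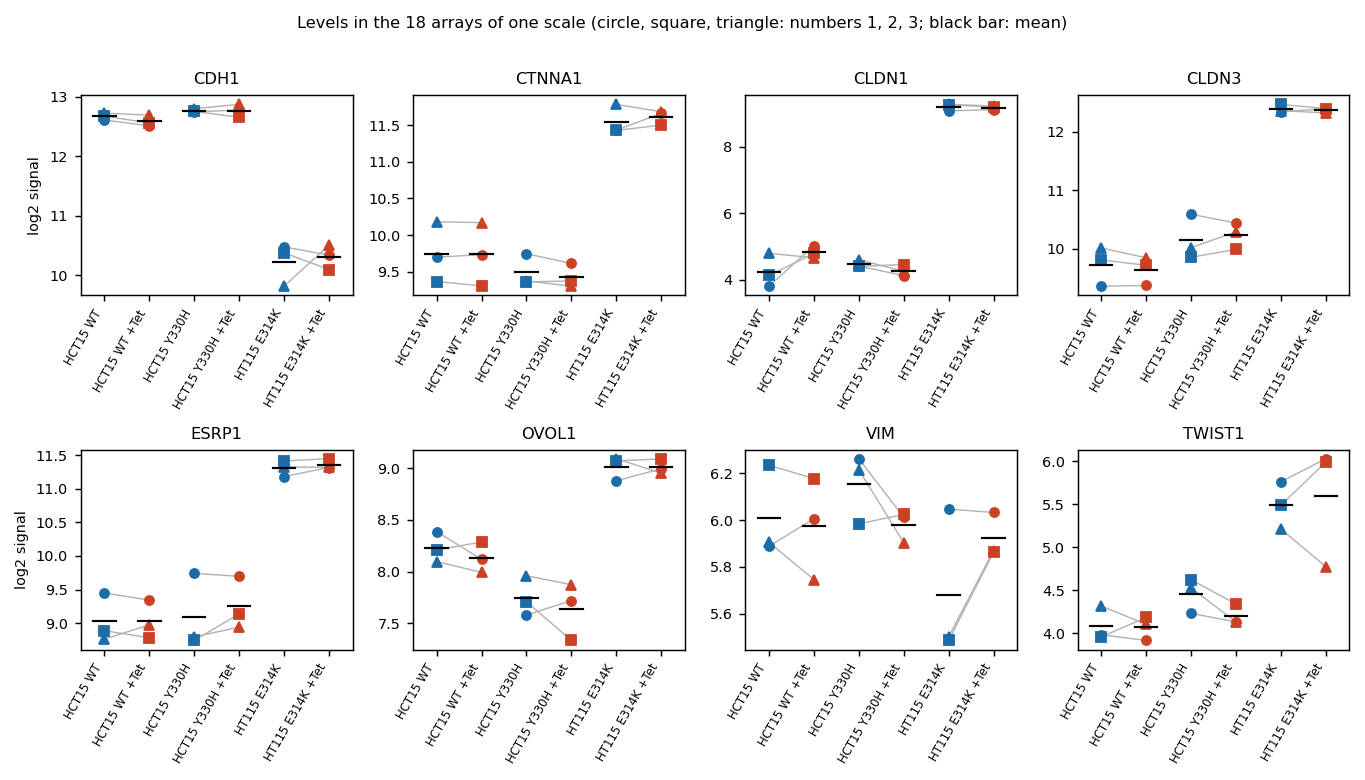
Each panel plots the log2 signal (y axis) of 1 gene in the 18 arrays of one scale by group (x axis), untagged in blue and Tet in red, with grey lines joining arrays of the same number and black bars for means. CDH1 lies between 12.51 and 12.87 in the 12 HCT15 arrays and at 10.48 or below in untagged HT115 E314K, while CTNNA1, CLDN1, CLDN3, ESRP1, OVOL1 and TWIST1 are higher in HT115 E314K.

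Of the 21 calls between the lines, 11 held in all of the up to 19 alternatives: CDH1, CDH3, CTNNA1, TJP1, CLDN1, CLDN3, DSC2, PKP3, ESRP1, OVOL1 and TWIST1. Several others rested on 1 HCT15 derivative. With HCT15 Y330H alone, CLDN2 differed by -0.58 (limma adjusted p 0.60), LAMB3 by -0.43 (0.517) and PERP by -0.14 (0.434). With HCT15 WT alone, SNAI1 differed by -0.11 (0.639). The calls of VIM, FN1, CGN, CLDN4, GRHL2 and OCLN were also lost under at least 1 alternative, OCLN only when all its probe sets were averaged. Of the 9 colon epithelium markers, 6 were lower in HCT15 beside these results, and the list averaged 7.96 to 9.36 per untagged HCT15 array and 11.3 to 11.5 per HT115 E314K array. Their part in the junction differences was not tested.

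The HCT15 derivatives also differed before tetracycline. Of the 34 genes, 2 were called in limma (HCT15 WT minus Y330H, untagged), or 5.88%, against 3.64% of all genes, a share near the background. LAMB3 signals were 6.86, 7.20 and 8.93 in HCT15 WT and 9.68, 9.26 and 9.66 in HCT15 Y330H, without overlap, and the difference was -1.88 ± 0.42 (SE, adjusted p 0.0199). SNAI1 signals were 6.10, 6.11 and 6.00 in HCT15 WT and 5.32, 5.28 and 5.77 in HCT15 Y330H, a difference of 0.61 ± 0.16 (SE, adjusted p 0.0440). Both calls depended on single arrays: LAMB3 was lost without HCT15 WT array 1 (-1.47, adjusted p 0.108) or 2 (-1.64, 0.0973) or without HCT15 Y330H array 1 (0.0586) or 3 (0.0821), and SNAI1 without any 1 array other than HCT15 Y330H array 3 (0.0624 to 0.139).

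CLDN2 stood beside LAMB3 in this comparison, with signals of 7.69, 9.66 and 10.70 in HCT15 WT and 11.83, 11.05 and 11.46 in HCT15 Y330H. The groups did not overlap, and the difference of -2.09 ± 0.69 (SE) had a limma adjusted p of 0.109. OVOL1 (0.48, adjusted p 0.0713), DSC2 (-0.62), DSG2 (-0.38) and PERP (-0.35) did not pass. Some intestinal markers differed in the same arrays. VIL1 (villin) signals were 5.98, 6.40 and 8.998 in HCT15 WT and 10.20, 8.47 and 9.68 in HCT15 Y330H, with overlap (limma adjusted p 0.102). CDX2 differed by -0.80 (adjusted p 0.0411) and CDH17, an intestinal cadherin, by -3.66 (0.00484). Of the other colon markers, KRT20 was higher (0.20). KRT8 (-0.33), KRT19 (-0.29), KRT18 (-0.11), GPA33 (-0.04) and CDX1 (-0.02) were lower, and none of these was called. CDX2 and CDH17 were the called genes of the 9 colon markers, whose mean was 7.96 to 8.88 per HCT15 WT array and 8.93 to 9.36 per HCT15 Y330H array, and their part in the LAMB3 and CLDN2 differences was not tested.

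**Figure D5:**
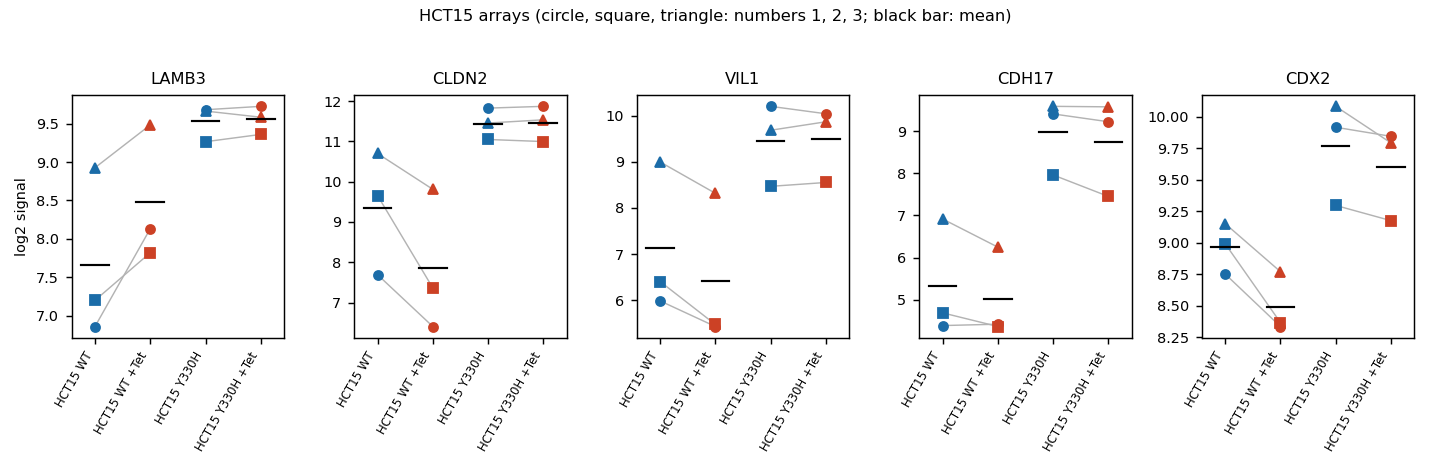
The panels plot the log2 signal (y axis) of LAMB3, CLDN2 and 3 intestinal markers (VIL1, CDH17, CDX2) in the 12 HCT15 arrays by group (x axis), with circles, squares and triangles for numbers 1, 2 and 3, grey lines joining equal numbers and black bars for means. HCT15 WT array 3 is the highest of its group for all 5 genes, with LAMB3 at 8.93 and VIL1 at 8.998 untagged.

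Among 72 other measured genes of these pathways (78 listed), 1 was called in the HCT15 WT induction, ITGA6, the alpha-6 chain of the laminin receptor of hemidesmosomes (0.52 ± 0.12 SE, limma adjusted p 0.0418). With the replicate block PARD6B, PLEC and ITGA6 rose, and the epithelial transcription factors GRHL3 (-1.18, adjusted p 2.92e-04) and EHF (-1.06, 0.00290) fell. These were 1.39% of the 72 genes in limma and 6.94% with the block, against 0.698% and 4.86% of all genes. None was called in the HCT15 Y330H or the HT115 inductions in limma. With the block, 3 were called higher in the HT115 WT induction, the mesenchymal genes TNC (1.95, adjusted p 2.06e-04) and THBS1 (0.78, 0.0122) and the desmosomal cadherin DSG3 (0.69, 0.00853), or 4.17% against 0.941% of all genes, but the HT115 numbers did not pass the pairing check. Between the lines 12 were higher and 16 lower in HCT15, or 38.9%, a share near the 35.3% of all genes. The desmosomal cadherins DSC3 (-5.58) and DSG3 (-2.94), the nectin NECTIN3 (-4.73), TGFBI (-6.09) and TCF4 (-3.60) were lower, and the plakin PPL (1.31) was higher. These are differences of signals, and whether the lower side stands above background was not tested. Between the HCT15 derivatives 6 were called (8.33%, against 3.64% of all genes): NECTIN2 was higher in HCT15 WT (0.54), and NECTIN3 (-3.27), CDH17, PPL (-0.66), ITGB4 (-0.78) and LEF1 (-0.59) were lower.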

How the data were processed

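RNA of 24 samples was hybridised to Affymetrix U133 Plus 2.0 arrays after whole-transcriptome amplification, per the labels' protocols. For each probe set the authors deposited a log2 signal. The submitters' processing notes name RMA and Affymetrix Power Tools, without versions. Genes were named by the platform annotation: of 54675 probe sets, 41097 had 1 symbol, 1801 several and 11777 none, and each of 19775 genes was taken at its brightest probe set of 1 symbol. Signals of different probe sets were not compared as amounts.

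Changes were fitted with limma 3.58.1 (R 4.3.3; lmFit and eBayes) on all 24 arrays (16 residual and 4.83 prior degrees of freedom), and levels on the 18 arrays of one scale (12 and 4.56). Called genes had an adjusted p (Benjamini-Hochberg, over all 19775 genes) under 0.05. Same-numbered Tet and untagged arrays correlated in their deviations at 0.581, 0.488 and 0.416 in HCT15 WT and 0.767, 0.618 and 0.310 in HCT15 Y330H, so HCT15 numbers were taken as pairs, and HCT15 results are shown also from a fit with the replicate block. In HT115 not every correlation passed 0.1 (lowest -0.005 in WT, 0.051 in E314K), but the block had a term for each number in all 4 derivatives (8 residual degrees of freedom), so its spread rests on HT115 pairs too. Fits with pairs in HCT15 only (12) and on the 12 HCT15 arrays alone (4) were added after seeing the data. On simulated data for the HCT15 WT induction with 19775 genes, 90% of genes changed by 1 log2 unit and 100% of those changed by 2 were called. With the replicate block these shares were 88% and 98%. The simulated noise was independent between arrays, without the correlation of same-numbered arrays. Changes under 1 log2 unit, the size of most changes described here, were not simulated.

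The members, gene lists and comparisons were chosen with earlier results of these data known. All members called in a comparison were named, with the 3 largest rises and falls of each induction and difference; others were named after their values were seen. Array number, 3 per group, limits the precision. Alternatives were all probe sets averaged, the brighter genes, quantile normalization again, an intensity trend, array weights, only the groups compared, the replicate block and each array left out. For line and derivative levels, Tet arrays and single derivatives were also tried.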

Additional observations from a re-analysis of the deposited data

Results flagged for a closer look

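TJP3, which encodes the tight junction scaffold ZO-3, differed between the 2 inductions in HCT15 with the replicate block. The WT minus Y330H difference was -0.797, with an adjusted p of 0.0264 in limma with that block. It was not called without the HCT15 WT arrays numbered 1 (adjusted p 0.0901), the pair with the high ACTB difference, or numbered 2 (0.140). TJP3 was lower with Tet in all 3 HCT15 WT pairs.

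CLDN2, which encodes the channel-forming claudin-2, also differed between these inductions, by -1.51 (adjusted p 0.0201 in the same fit), and was called without each pair (0.0468, 0.00800 and 0.00227). CLDN2 was lower with Tet in all 3 HCT15 WT pairs, with changes of -1.29, -2.29 and -0.89. Without the replicate block neither difference was called (adjusted p 1.00 for both), nor with the block on the 12 HCT15 arrays alone (0.0793 and 0.174). Groups of 3 arrays are too small for a test of single outlying arrays.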

How the results depend on the processing

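The number of the 34 genes called in the HCT15 WT induction was 0 and became 5 with the replicate block, 6 with pairs in HCT15 only, 3 with the block on the HCT15 arrays alone, 6 with array weights (TJP3, CLDN1, DSC2, PKP2, LAMB3 and SNAI1) and 0 to 2 when single arrays were left out. With the block and both HCT15 WT arrays of 1 number left out, alternatives chosen after seeing the data, it was 3, 3 and 5 for numbers 1, 2 and 3. For the HT115 WT induction it was 1 (CLDN1) with array weights. For the difference of the HCT15 inductions it was 2 with the replicate block, 2 with pairs in HCT15 only, 0 on the HCT15 arrays alone, and 1, 1 and 3 with the arrays of number 1, 2 or 3 also left out, and for HCT15 WT minus HT115 WT it was 1 (TJP3, -0.79, adjusted p 0.0437) with the block, which pairs the HT115 arrays too, and 0 with pairs in HCT15 only. Leaving out single arrays gave 0 in the other inductions and in the differences, 16 to 21 between the lines (main count 21) and 0 to 2 between the HCT15 derivatives. The derivative count of 2 became 7 with array weights, 0 with only the compared groups in the fit and 5 in Tet arrays. For array weights, arrays or pairs left out, compared groups only and Tet arrays, no share of all genes called is given. Those counts were therefore not set against a background, and a fit that calls more genes everywhere would also raise them. Among the 34 genes the block changed no other count of calls by over 1.5 times, whereas over all genes it raised the calls in the HT115 WT induction from 29 to 186. Directions turned for CLDN4 between the lines when all probe sets were averaged (0.0401) and for ZEB1 in the E314K induction after quantile normalization (0.0256). With single arrays left out, the changes spanned 0 for ESRP1 in Y330H (-0.0542 to 0.489), for ZEB1 (-0.129 to 0.0567), ZEB2 (-0.0260 to 0.347) and DSP (-0.187 to 0.0775) in E314K, and for LAMB3 in HCT15 WT minus HT115 WT (-0.108 to 1.03). None of the values that turned was called, and the cause of each change was not tested.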
